A study of Saccharomyces cerevisiae with 4 samples.

Results

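General stress genes of Saccharomyces cerevisiae were followed in cells that lack the MAP kinase Hog1 and were exposed to Congo Red, which attaches to the chitin and glucan of the cell wall and hinders its assembly. The genes were chosen by name, as known targets of the transcription factors Msn2 and Msn4 or of Hog1, and were read from a cell wall microarray through the platform's annotation. Of the 7 genes chosen, 5 are in that annotation, out of 353 named genes in all: HSP12 (YFL014W), HSP26 (YBR072W), YGP1 (YNL160W), HSP104 (YLL026W) and DDR2 (YOL052C-A). CTT1 and GPD1, the cytosolic catalase gene and the glycerol 3-phosphate dehydrogenase gene that answer to osmotic stress, were not analysed here.

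The strain was BY4741, a laboratory strain, with HOG1 deleted, so the RNA in both channels of every array came from cells without the kinase. A culture in rich medium (YEPD) at 24 °C was split. The treated part received Congo Red at 30 µg/ml and the other part went on without it, and total RNA was taken from both after 4 h. There were 4 arrays, each carrying both RNAs. Channel 2 held the Congo Red RNA on arrays 1 and 3, and channel 1 held it on the other arrays. Cells with an intact HOG1 were not analysed here, so no comparison of strains is made. Nothing in the labels says that the arrays came from separate cultures, so the spread behind the p-values is that of these 4 arrays and may be technical. The level of a transcript was not measured, only its ratio between the RNAs of an array, and the number of arrays limits the precision.

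Msn2 and Msn4 are related zinc finger factors that enter the nucleus under many kinds of stress and when nutrients run low, and raise a broad set of protective genes through short promoter elements known as STREs. Protein kinase A, active in growing cells, keeps them out of the nucleus. Under high osmolarity, Hog1 goes to many of the same genes and raises them together with Msn2 and Msn4 or with factors such as Hot1 and Sko1, while the heat shock factor Hsf1 adds to the control of chaperone genes.

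The deposited values are log2 ratios for each spot. The sources used here do not say which RNA is the numerator. The ratios are called Congo Red over untreated as the likely direction, because CWP1, a wall mannoprotein gene known to rise under cell wall stress, then had positive values on every array (2.69, 3.80, 3.17 and 3.62 on arrays 1 to 4, mean 3.32 ± 0.49, SD, n = 4). With the untreated RNA as numerator, every direction given here would be the opposite one. The sources also do not say whether the deposited ratios of arrays 2 and 4 had been turned to the direction of arrays 1 and 3. Values are used as deposited, and those with arrays 2 and 4 turned are given for the general stress genes and for the main values of the other genes. CWP1 then averaged -0.39 ± 3.84. Over genes, which are not independent replicates, arrays 1 and 3 had a Pearson's r of 0.73 and arrays 2 and 4 of 0.75, against 0.26 to 0.44 between arrays of opposite channel order. HOG1 itself had values of 1.43, -1.73, -0.23 and 1.25, and since its probe may lie inside or outside the deleted part, these do not check the deletion. ACT1, the actin gene, averaged 0.06 ± 0.13 on the log2 scale (SD, n = 4).

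After Congo Red, the general stress genes did not move as a block. HSP26 and YGP1 fell by similar amounts, while HSP12, HSP104 and DDR2 lay at different levels on the arrays of either channel order. HSP12 was above the untreated part on 3 arrays, but on array 3 its log2 ratio of 0.16 was under that array's median of 0.22. With limma across the 348 genes that had at least 3 values, and Benjamini-Hochberg adjustment over all of them, 2 of the 5 genes were lower and 0 were higher at an adjusted p under 0.05 (0 higher at an unadjusted p under 0.05 as well). Over all tested genes, 3.74% were lower and 17% were higher by the same rule. The genes were chosen with earlier results of these data known, so the count is a description.

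HSP26 encodes a small heat shock protein, an ATP-independent chaperone that holds unfolded proteins and keeps them from aggregating. Its log2 ratios were -1.01, -1.29, -0.56 and -0.92 on arrays 1 to 4. All 4 were below 0, and the arrays of either channel order overlapped. The mean of -0.94 ± 0.30 (SD, n = 4) is a 1.92-fold fall (95% confidence interval of the log2 ratio -1.33 to -0.56; limma adjusted p = 0.0134). The call was lost without array 1 (log2 -0.92, limma adjusted p = 0.0653) or without array 4 (log2 -0.95, limma adjusted p = 0.0589), while the size hardly moved.

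YGP1 encodes a secreted, highly glycosylated protein, known for its rise when cells enter stationary phase or are starved. Its log2 ratios of -1.14, -0.93, -0.75 and -0.86 on arrays 1 to 4 were all below 0, with the narrowest spread of the 5 genes. The mean was -0.92 ± 0.17 (SD, n = 4), a 1.89-fold fall (95% confidence interval of the log2 ratio -1.22 to -0.62; limma adjusted p = 0.00729), and the call held without any single array. Among the 348 tested genes, HSP26 had the mean in place 6 and YGP1 in place 8, counted from the lowest. Values below 0 on every measured array were found in 14.7% of tested genes. With arrays 2 and 4 turned, both falls were gone: HSP26 averaged 0.16 ± 1.12 and YGP1 of -0.03 ± 1.08 (SD, n = 4).

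HSP12 encodes a small hydrophilic protein that associates with membranes and is among the most strongly stress-induced transcripts of yeast. Its log2 ratios were -0.28, 0.85, 0.16 and 0.80 on arrays 1 to 4. Arrays 2 and 4 were high and close together, and arrays 1 and 3 lay below them on either side of 0. The mean was 0.38 ± 0.54 (SD, n = 4) and did not pass (limma adjusted p = 0.331; 0.23 to 0.60 with each array left out, lowest without array 2 and highest without array 1), with a 95% confidence interval from -0.20 to 0.97 that spans a small fall and a rise about as large as the fall of HSP26.

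DDR2 is a small gene of unknown biochemical role that is raised by DNA damage and by heat shock. Its values on arrays 1 to 4 were -0.96, 0.17, -0.56 and 0.14 as log2 ratios. Arrays 1 and 3 were below 0, arrays 2 and 4 just above it, and the sets did not overlap. The mean of -0.30 ± 0.55 (SD, n = 4) did not pass (limma adjusted p = 0.429; 95% confidence interval -0.90 to 0.29). It was -0.09 without array 1 and -0.46 without array 2.

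HSP104, the gene of the disaggregase that pulls proteins out of aggregates and works with the small heat shock proteins, ran the opposite way. Its log2 ratios were -0.02, -1.13, 0.26 and -1.01 on arrays 1 to 4. Arrays 2 and 4 were low, close to HSP26 on the same arrays, and arrays 1 and 3 were nearer to 0. The mean of -0.47 ± 0.70 (SD, n = 4) did not pass (limma adjusted p = 0.333; 95% confidence interval -1.20 to 0.25). It was -0.25 without array 2, -0.30 without array 4 and -0.72 without array 3.

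**Figure D1:**
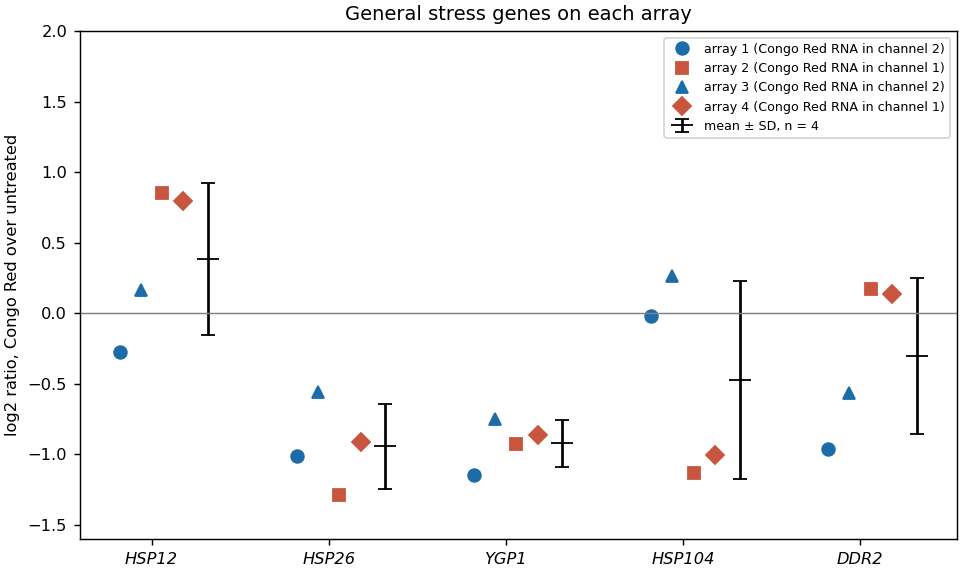
Log2 ratios of the 5 general stress genes (y axis, Congo Red over untreated) on each of the 4 arrays, with colour for the channel that held the Congo Red RNA and bars for the mean ± SD (n = 4). HSP26 and YGP1 lie below 0 on all 4 arrays, while HSP12, HSP104 and DDR2 fall into separate levels by channel order, with HSP104 running the other way.

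Each gene was spotted on the array in 2 places, and the spots repeated each other well. Between the spots of a gene on the same array, the log2 ratios differed by at most 0.10 for HSP12, 0.14 for HSP26, 0.17 for YGP1 and 0.20 for DDR2. The widest gap was 0.39, for HSP104 on array 4. The splits between arrays described above are larger than these gaps: the means over arrays of either channel order were 1.19 apart for HSP104, against the widest gap of 0.39 between its spots.

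The part of each ratio that went with channel order was then fitted as a second coefficient beside the treatment. The difference, arrays 1 and 3 minus arrays 2 and 4, was 1.19 for HSP104 (95% confidence interval 0.63 to 1.75; limma adjusted p = 0.0376), the single gene of the 5 that passed, against 6.61% of all tested genes. For HSP12 it was -0.88 (-1.49 to -0.27; limma adjusted p = 0.0892) and for DDR2 -0.92 (-1.51 to -0.32; limma adjusted p = 0.0756), so neither passed. HSP26 had a difference of 0.32 (-0.35 to 0.99) and YGP1 of -0.05 (-0.64 to 0.54). Arrays 1 and 3 did not overlap arrays 2 and 4 for HSP12, HSP104 and DDR2, 3 of the 5 genes, against 55.8% of the 328 genes with 4 values, so such a split was common on these arrays.

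With this term in the model, the treatment means stayed as they were and their intervals narrowed for the genes that split. HSP104 then passed as lower (log2 -0.47, 95% confidence interval -0.75 to -0.19; limma adjusted p = 0.0245). HSP26 and YGP1 passed as before (limma adjusted p = 0.00387 and 0.00270). HSP12 came close to the threshold as higher (0.08 to 0.69; limma adjusted p = 0.0590), and DDR2 did not pass (-0.60 to -0.01; limma adjusted p = 0.107). In this model 9.77% of tested genes were lower and 25% higher. If arrays 2 and 4 had to be turned, the channel order coefficient would be the treatment effect: HSP104 would then pass as higher in this model (log2 0.60, limma adjusted p = 0.0376), but not when the turned values were fitted without such a term (limma adjusted p = 0.563), and HSP12 and DDR2 would have log2 ratios of -0.44 and -0.46. The choice of turning therefore sets the sign of HSP12, HSP26 and HSP104 and the calls of HSP26 and YGP1. In the model with treatment alone, limma called 59 tested genes higher and 13 lower on the values as deposited. With arrays 2 and 4 turned it called 0 higher and 0 lower.

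**Figure D2:**
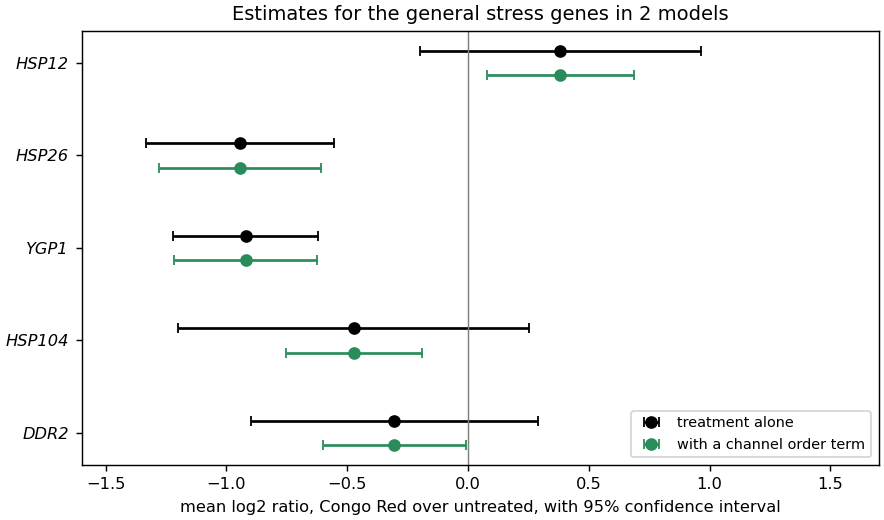
Mean log2 ratios of the 5 genes (x axis, Congo Red over untreated) with 95% confidence intervals, from the model with treatment alone and from the model with a channel order term. The means are the same in both; the interval of HSP104 lies below 0 only with the term, at -0.75 to -0.19, and those of HSP26 and YGP1 lie below 0 in both.

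**Figure D3:**
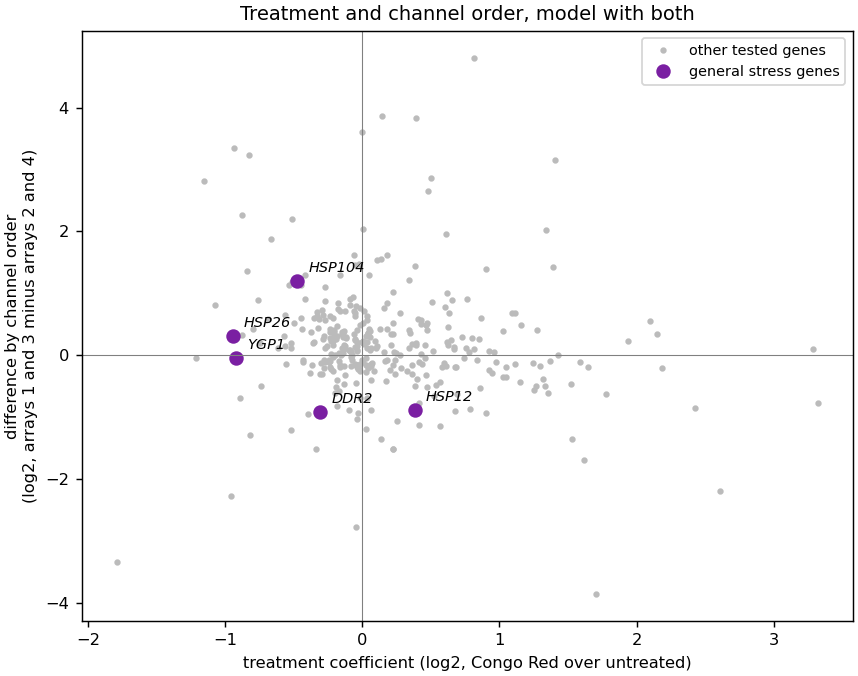
Treatment coefficient (x axis, log2) and difference by channel order (y axis, log2, arrays 1 and 3 minus arrays 2 and 4) for all tested genes, from the model with both. HSP26 and YGP1 sit at the low end of the treatment axis near 0 by channel order, HSP104 lies above 0 on the vertical axis at 1.19, and HSP12 and DDR2 lie side by side below 0, at -0.88 and -0.92.

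Because the genes were read on the same arrays, the difference between a pair of log2 ratios is free of any shift shared by an array. All 10 pairs were compared with the exact two-sided sign-flip permutation test over the 4 arrays. Its smallest possible p comes from 2 of the 16 sign patterns and is 0.13 when rounded, so no pair could pass. HSP12 was above HSP26 by 0.74, 2.14, 0.72 and 1.71 on arrays 1 to 4, a mean of 1.33 ± 0.71 (SD, n = 4; exact permutation p = 0.13, adjusted p = 0.313 over the 10 pairs). It was above YGP1 by 0.87, 1.78, 0.91 and 1.66, a mean of 1.30 ± 0.48, with the same p-values. The order of HSP12 above both falling genes thus held on all 4 arrays, and the size of the gap varied with channel order.

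HSP26 and YGP1 had the lowest means of the general stress genes. They differed by -0.02 ± 0.25 in log2 ratio (HSP26 minus YGP1, SD, n = 4, exact permutation p = 0.875), with either sign on 2 arrays. Next in the order of means came HSP104 and then DDR2. YGP1 minus HSP104 was -0.45 ± 0.72 and HSP104 minus DDR2 -0.17 ± 1.22, so neither of these steps exceeded its spread.

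HSP12 and DDR2 had different means and moved in parallel, with similar differences by channel order (-0.88 and -0.92). A split by channel order was common on these arrays, as given above. HSP12 minus DDR2 was 0.69, 0.68, 0.72 and 0.66 in log2 ratio on arrays 1 to 4, a mean of 0.69 ± 0.03 (SD, n = 4; exact permutation p = 0.13, adjusted p = 0.313 over the 10 pairs), or 1.61-fold. DDR2 was the gene with the steadiest difference from HSP12 among the 327 other genes with 4 values, and HSP12 the steadiest for DDR2. YPS3, a yapsin protease gene, came next for HSP12, with an SD of 0.06, and the median over all 327 genes was 0.62. The SD of 0.03 for HSP12 minus DDR2 was smaller than the widest gap between the spots of either gene on an array. That gap was 0.10 for HSP12 and 0.20 for DDR2. The measure of steadiness was chosen after the values were seen and is a description over 4 arrays. With arrays 2 and 4 turned, the gap changed sign with channel order and had a mean of 0.02.

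**Figure D4:**
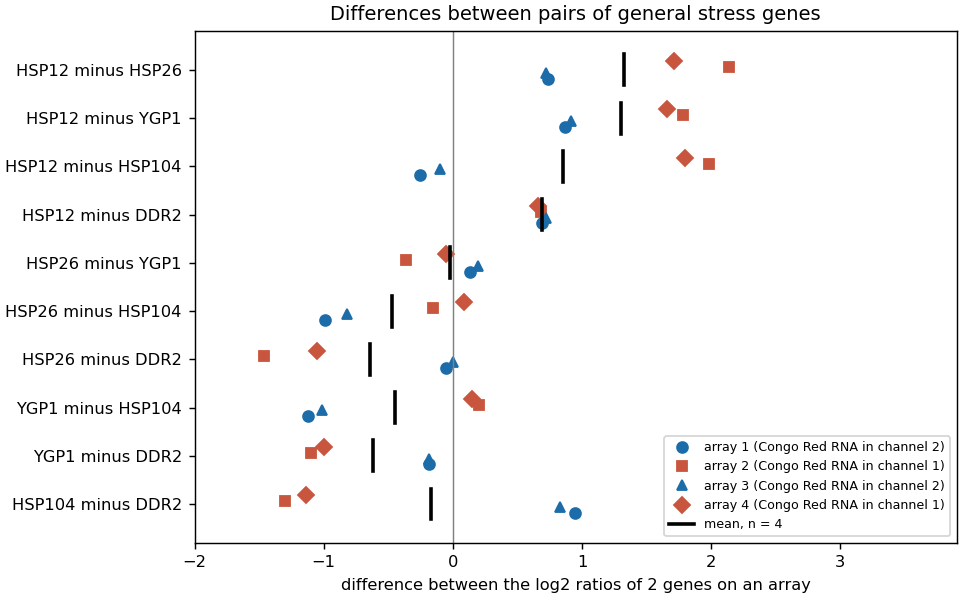
Differences between the log2 ratios of each pair of general stress genes on an array (x axis), for the 4 arrays (symbols) with their mean (bar). HSP12 minus DDR2 lies between 0.66 and 0.72 on all arrays, whereas HSP12 minus HSP104 and HSP104 minus DDR2 split by channel order.

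The genes whose log2 ratios lay nearest to each member were found by the root mean square difference over the 4 arrays, among 327 other genes. For HSP26 they were WSC4, a membrane sensor gene of the WSC family (0.15), DCG1 (0.19) and YGP1 (0.22), and for YGP1 they were HSP26 (0.22), WSC4 (0.25) and the CTP synthase gene URA7 (0.31). WSC4 had log2 ratios of -0.75, -1.24, -0.67 and -0.85. For HSP12 the nearest were CIS3 (0.21), a wall protein gene of the PIR family, CWP2 (0.23), a gene for a major wall mannoprotein, and DFG16 (0.26), a membrane protein gene of the alkaline pH pathway. None of these 3 passed; CIS3 averaged 0.52 ± 0.42 (SD, n = 4; limma adjusted p = 0.121).

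Other genes of the general stress programme were read from a list of 47 known Msn2 and Msn4 targets, of which 9 were on the array, the 5 genes above included. Of these 9, 1 was higher, 2 were lower and 6 did not pass (limma, against 17% higher and 3.74% lower over all tested genes). The median log2 ratio was -0.04, against 0.02 over all tested genes, and its sign was not stable: it was 0.03 without array 1, without array 2 or with arrays 2 and 4 turned, and -0.12 without array 3. The higher gene was SPI1, whose product is a GPI-anchored wall protein raised in stationary phase and by weak acids. The log2 ratios of SPI1 were 0.94, 0.95, 0.97 and 0.84, a 1.90-fold rise with the smallest spread of the 9 genes (mean 0.93 ± 0.06, SD, n = 4; limma adjusted p = 0.00504). With arrays 2 and 4 turned its mean was 0.03 (limma adjusted p = 0.984). On the log2 scale, the glucokinase gene GLK1 averaged -0.01 ± 0.14, the nicotinamidase gene PNC1 of 0.04 ± 0.38, and STF2, linked to the mitochondrial ATP synthase, of -0.04 ± 0.24 (SD, n = 4 each).

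Of 24 genes listed as raised through Hog1 under osmotic stress, 4 were measured: HSP12, GRE2, SIP18 and RTC3. With treatment alone in the model, none was higher or lower (limma), against 17% higher and 3.74% lower over all tested genes. At an unadjusted p under 0.05, GRE2 alone was lower in that model. The median log2 ratio of these 4 genes was -0.20, against 0.02 over all tested genes. It was -0.12 without array 1 or without array 2 and -0.10 with arrays 2 and 4 turned. GRE2, a reductase gene that Sko1 represses until Hog1 acts, had log2 ratios of -0.53, -0.37, -0.35 and -0.20. All 4 were below 0, with a mean of -0.36 ± 0.13 (SD, n = 4; limma adjusted p = 0.0874). It passed as lower after each array was centred on its median (limma adjusted p = 0.0476) and, only just, with the channel order term (limma adjusted p = 0.04996). With arrays 2 and 4 turned its mean was -0.08. SIP18, a hydrophilin gene of desiccation tolerance, had 0.38, -1.19, -0.15 and -0.83, so that arrays 2 and 4 were low, as for HSP104.

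Of 21 heat shock genes, HSP26 and HSP104 were the 2 measured. Of 28 regulators of these programmes, 3 were measured. With treatment alone in the model, none was higher or lower (limma), against 17% higher and 3.74% lower over all tested genes. None passed at an unadjusted p under 0.05 in that model either (limma). With so few genes, the absence of a call says little against these shares. SKO1, the repressor gene of the Hog1 pathway, averaged a log2 ratio of -0.15 ± 0.08, YAP1, the factor of the oxidative stress response, -0.12 ± 0.42, and CRZ1, the factor activated by calcineurin, -0.33 ± 0.40 (SD, n = 4 each). MSN2, MSN4, HOT1 and HSF1 were not analysed here.

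YGP1 was also set beside other surface protein genes that are known for stress, cold, anaerobic growth, sporulation or stationary phase. Of 8 listed, 7 were measured: 2 were higher, YGP1 was lower and 4 did not pass (limma), against 17% higher and 3.74% lower over all tested genes. The median log2 ratio was 0.61, against 0.02 over all tested genes; it was 0.27 without array 1, 0.40 without array 4 and -0.04 with arrays 2 and 4 turned. The higher genes were SED1, a major GPI-anchored wall protein of stationary phase, at a mean of 1.52 ± 0.27 (log2, SD, n = 4; limma adjusted p = 0.00353; -0.23 with arrays 2 and 4 turned), and SPI1. SPS100 is a spore wall protein gene related in sequence to YGP1, with log2 ratios of 2.06, -0.53, 1.13 and -0.21. It was high on arrays 1 and 3 and low on arrays 2 and 4, with a mean of 0.61 ± 1.20 (SD, n = 4; limma adjusted p = 0.429). The specificity of the probes of YGP1 and SPS100 is not stated in the sources used here; their ratios had opposite signs on arrays 1 and 3 and the same sign on arrays 2 and 4. The mannoprotein genes DAN1, TIR1 and TIP1 had mean log2 ratios of 0.68 ± 0.67, 0.17 ± 0.26 and -0.08 ± 0.15 (SD, n = 4 each) and did not pass. With the channel order term 4 of the 7 genes were higher, DAN1 (limma adjusted p = 0.0334) and SPS100 (limma adjusted p = 0.0447) being added. In that model 25% of all tested genes were higher.

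**Figure D5:**
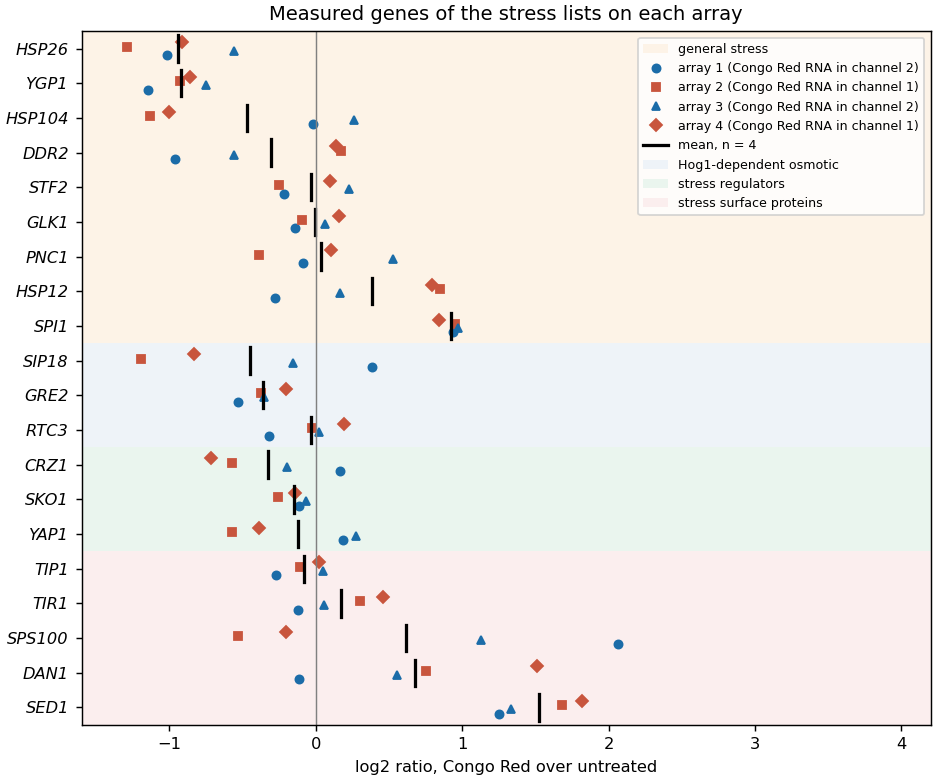
Log2 ratios (x axis, Congo Red over untreated) on the 4 arrays for every measured gene of the stress lists, each gene shown once, with shading for its list and a bar for the mean. HSP26 and YGP1 lie at one end and SPI1 at the other end of the general stress genes, and SED1, at a mean of 1.52, is the highest of all genes shown.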

How the data were processed

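The authors' deposited table holds log2 ratios of the channels for 896 spots on 4 arrays. The base was inferred by counting values that match, to within 0.00011, the logarithm of a quotient of small whole numbers (10 or less): arrays 1 to 3 gave 36 to 58 matches in base 2 and no more than 9 in base e or 10. Array 4, with 2 decimals, could not be checked. The sources used here do not give dyes, scanner, background correction or normalization. Array medians were 0.01, -0.13, 0.22 and 0.07. Signal intensities were not analysed here, so faint or saturated spots could not be set apart.

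The old platform annotation gave 1 gene for 724 spots, several for 10 and none for 162. All 353 genes matched the R64 gene table, used for names only. Spots of a gene were averaged on each array. The 348 genes with at least 3 values entered a limma 3.58.1 test of the mean ratio against 0 (lmFit and then eBayes, run under R 4.3.3) at a Benjamini-Hochberg adjusted threshold of 0.05. The test was tried on simulated data in which arrays were drawn independently, with no effect of channel order. Its error rate under such an effect was not tested. Alternatives covered centring, scaling, turning, channel order, weights, variance estimation, missing values, spot summaries, a fold threshold and each array left out.

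The members and lists were chosen with earlier results of these data known. Named genes were the members, measured list genes, the 3 nearest genes to HSP12, HSP26 and YGP1, HOG1 and ACT1; CWP1 and YPS3 were named after their values were seen. Figures used matplotlib 3.10.9.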

Additional observations from a re-analysis of the deposited data

Results flagged for a closer look

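The log2 ratio differed with channel order for 2 of the named genes. Over all tested genes, 6.61% passed the same test, so the flag is not particular to these genes. HSP104 had a channel order coefficient of 0.60 on the log2 scale (limma adjusted p = 0.0376): both arrays 1 and 3 lay above both arrays 2 and 4. SPS100 had a coefficient of 0.98 (limma adjusted p = 0.0352) in the same direction. Dyes and intensities of these spots were not analysed here, and their part in the result was not tested. Among 30 named genes with 4 values, 0 had an array set far apart from the rest, where chance marks about 1 group in 20.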

How the results depend on the processing

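Of 75 values for the 5 genes under alternatives, 68 kept their direction and side of the threshold. Channel order terms, robust variance, missing-value filters and spot summaries left each mean as it was, so direction could not change there. With arrays 2 and 4 turned, limma called 0 genes higher and 0 lower (33 at an unadjusted p under 0.05), the general stress list had 0 and 0, and the log2 ratios were -0.44 for HSP12, 0.16 for HSP26, 0.60 for HSP104 and -0.027 for YGP1. The pairwise differences that reversed there were HSP12 minus HSP26 (-0.60), HSP12 minus YGP1 (-0.41), HSP12 minus HSP104 (-1.04), HSP26 minus YGP1 (0.18), HSP26 minus DDR2 (0.62), YGP1 minus DDR2 (0.43) and HSP104 minus DDR2 (1.05); turning is the cause by construction. HSP104 passed with a channel order term (-0.47). Against 59 genes higher and 13 lower, 23 were lower with the arrays centred, 24 centred and scaled, 34 with the channel order term, and 39 higher and 4 lower with channel order as a random block. Leaving out each array in turn gave 25 to 49 higher and 2 to 6 lower genes, fewest higher without array 3 and fewest lower without array 1. It gave -1.07 to -0.83 for HSP26, 1 to 2 lower general stress genes (1 without array 1 or 4), -0.095 to 0.090 for HSP26 minus YGP1 (positive without array 2) and -0.54 to 0.21 for HSP104 minus DDR2 (positive without array 2 or 4); fewer arrays were fitted, and no other cause was tested. No paired analysis was possible because all arrays form a single group, each ratio already setting both RNAs of an array against each other.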
